A study of Mus musculus with 49 samples.

Results

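The interferon-stimulated genes described here are Stat2, Irf9, Irf7, Usp18, Ifit1, Ifit2, Ifit3, Rsad2 and Isg15, followed in the urinary bladder of mice that drank arsenate. They were listed by name, and each was read from the probe set of highest mean among those annotated to that gene alone. Of the 9 listed genes, 8 had such a probe set. All 8 passed the filter on dim genes and stand among 14618 genes tested. Isg15 lies only on a probe set that the annotation shares with Gm9706, so it was not analysed here.

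Arsenate is the pentavalent form of inorganic arsenic, given in drinking water at 0.5, 2, 10 or 50 ppm, against water with 0 ppm. Whole bladders of female C57Bl/J mice were taken after 1 week of exposure, at 76 days of age, or after 12 weeks, at 155 days. Each of the 10 groups held 5 mice, except 4 at 0.5 ppm for 1 week, and each of the 49 Affymetrix Mouse430_2 arrays held the RNA of 1 mouse without pooling. The first number in a label is common to every mouse of its group and its meaning is not given, so dose and that number cannot be told apart.

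Type I interferons bind a receptor on the cell surface whose kinases activate STAT2. Together with IRF9 it acts in the complex ISGF3, which binds the interferon-stimulated response element and switches on a large set of target genes, among them those of its own subunits. IRF7 amplifies interferon production, and USP18 removes ISG15 from proteins and blocks the receptor's signalling. The IFIT proteins bind viral RNA, and RSAD2, also called viperin, makes a chain-terminating nucleotide that stops viral RNA synthesis. These genes are kept at a low level in uninfected epithelium and rise together when interferon is present.

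The element's core was searched in the promoters because it is the sequence through which these genes are known to be driven as a group. The motif GAAANNGAAA was looked for on both strands in the 250 bases before each gene start in the RefSeq promoters of GRCm38.p6. Of the 9 listed genes, 8 had a promoter entry and 5 held the motif, namely Stat2, Ifit1, Ifit3, Rsad2 and Isg15. The windows of Irf9, Irf7 and Ifit2 held no match to these letters. Among all 32851 promoters, 2.98% held the motif. The stretches below are written in the direction of the gene, with the motif in capitals, for the measured genes that hold it. In all of them it reads as its reverse complement.
Stat2: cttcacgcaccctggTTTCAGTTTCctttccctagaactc
Ifit1: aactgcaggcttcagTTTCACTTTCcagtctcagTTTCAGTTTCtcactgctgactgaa
Ifit3: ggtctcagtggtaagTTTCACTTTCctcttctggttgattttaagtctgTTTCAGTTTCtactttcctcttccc
Rsad2: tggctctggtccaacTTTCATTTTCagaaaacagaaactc

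The Stat2 stretch lies at chr10:128270261-128270300 on the plus strand, and its motif begins 222 bases before the gene start. The Ifit1 stretch, chr19:34640770-34640828 on the plus strand, holds motifs that begin 104 and 85 bases before the start. In Ifit3, chr19:34583358-34583431 on the plus strand, they begin 156 and 122 bases before it. The Rsad2 stretch, chr12:26456548-26456587 on the minus strand, holds 1 motif, 120 bases before the start. The core TTTCAGTTTC is shared by Stat2, Ifit1 and Ifit3, and TTTCACTTTC by Ifit1 and Ifit3. A match is a description of the sequence and was not tested as a binding site.

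The values are scanner signals, taken as log2(signal + 16), a scale with a floor of 4. All arrays had been scaled to a 2% trimmed mean of 500.003 to 500.004. Arrays of a group correlated at 0.9477 to 0.983, and none were identical. Urothelial and smooth muscle markers were bright in every mouse: Upk1b, a urothelial plaque protein, averaged 14.85 and Acta2, smooth muscle actin, 15.28. Macrophage markers were also present, with Csf1r at 12.55, while Siglech and Ccr9, which mark the interferon-making plasmacytoid dendritic cell, averaged 5.65 and 5.22. The other tested genes of that list averaged 5.46 (Tlr7), 7.99 (Klk1) and 14.7 (Ly6d, also a urothelial gene). In a whole organ, fewer cells of a type and less RNA per cell cannot be told apart. The RNA integrity number was lowest at 2 ppm for 1 week, where it averaged 8.16 (from 7.2 to 9.7), and 2 mice given 10 ppm for 1 week have none. Liver markers, 6 of 6 tested, moved with some comparisons and are given beside them.

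The floor of 4 stands for no signal, so a level above it does not by itself show that a gene was detected. On the log2(signal + 16) scale the mean level over all arrays was 10.30 for Usp18, 9.24 for Irf9, 8.64 for Ifit3, 8.34 for Irf7 and 8.24 for Stat2. It was 7.56 for Rsad2, 6.80 for Ifit1 and 6.65 for Ifit2. In linear signal the group means ran from 63.83 to 142.3 for Ifit1 and from 69.85 to 106.2 for Ifit2. The median signal over all probe sets of an array ran from 87.34 to 120.2. For genes this dim the size of a change depends on the offset of 16. Levels of different genes come from different probe sets and are not ranked against each other. The genes differed in how far mice of 1 group spread. The within-group SD was 0.158 for Irf9, 0.174 for Usp18 and 0.191 for Stat2, each below the median of 0.258 over all genes tested. It was 0.312 for Irf7, 0.348 for Rsad2, 0.350 for Ifit3, 0.386 for Ifit1 and 0.444 for Ifit2, each above that median. An equal change was thus read with a smaller error in the first set than in the second.

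**Figure D1:**
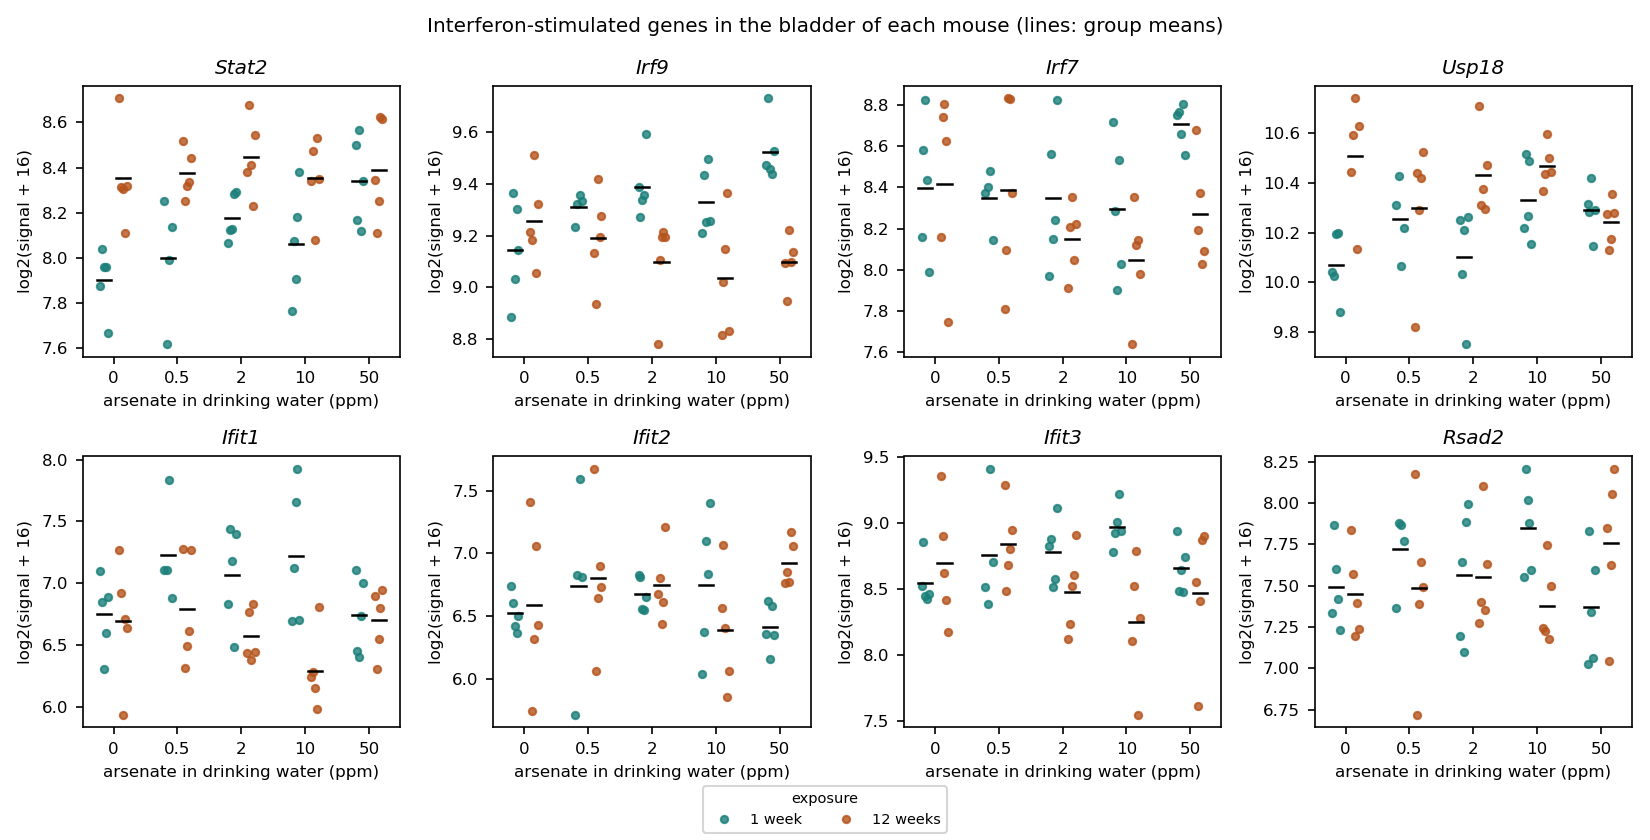
Level of each of the 8 measured genes, as log2(signal + 16), in every mouse (points) against the arsenate dose in ppm, with group means as black lines. Green points are mice exposed for 1 week and orange points mice exposed for 12 weeks. At 50 ppm for 1 week all Stat2 and Irf9 points lie above those of the 1-week water group.

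The first question was whether arsenate changed these genes within 1 week. At 50 ppm, Irf9 and Stat2, subunits of ISGF3, had the smallest p-values of the 8, and neither passed the test over all genes. Irf9 had levels of 9.47, 9.73, 9.46, 9.44 and 9.53 in the 50 ppm mice, against 8.88, 9.37, 9.03, 9.30 and 9.15 in the water mice. Every 50 ppm mouse lay above every water mouse. The log2 change was 0.38 ± 0.10 (SE), or 1.30-fold, with an adjusted p of 0.0812 from limma.

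Stat2 had levels of 8.50, 8.17, 8.57, 8.12 and 8.34 at 50 ppm, against 7.88, 8.04, 7.96, 7.96 and 7.67 in water. These groups did not overlap either. The log2 change of Stat2 was 0.44 ± 0.13 (SE), or 1.36-fold, with a limma adjusted p of 0.147. A second Stat2 probe set averaged 7.68 at 50 ppm and 7.28 in water, a change of 0.40 ± 0.12 (SE, limma adjusted p = 0.113). Both probe sets of Stat2 therefore gave a higher mean at 50 ppm of about the same size. Of all genes tested, 1.46% were higher at 50 ppm with no overlap between the groups, and 2 of the 8 interferon-stimulated genes were.

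Irf7, the amplifier of interferon production, averaged 8.71 ± 0.10 at 50 ppm and 8.40 ± 0.33 in water (SD, n = 5 each), with a change of 0.31 ± 0.17 (SE, limma adjusted p = 0.489). The 50 ppm mice lay within 8.56 to 8.81 and the water mice spread from 7.99 to 8.82, so the groups overlapped. Usp18, the brake on the receptor, changed by 0.22 ± 0.10 (SE, limma adjusted p = 0.41). The effector genes had means close to water: Ifit3 differed by 0.12 ± 0.16, Ifit1 by -0.01 ± 0.25, Ifit2 by -0.11 ± 0.26 and Rsad2 by -0.12 ± 0.19 (SE). Rsad2 has 2 further probe sets, which gave 0.06 and -0.04. The 4 genes of factors and regulator had higher means at 50 ppm, while 3 of the 4 effector genes had lower ones. This contrast between gene sets was not tested.

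At 50 ppm after 1 week limma called 0 of 8 genes (3 had an unadjusted p under 0.05, as did 11.6% of all genes), against a called share of 0.335% of all genes. The median change of the 8 was 0.17, and that of all genes 0.01. Liver markers moved with this contrast: their mean level was 6.81 at 50 ppm (range 6.39 to 7.61) and 8.99 in water (range 7.51 to 9.94), with 3 of 6 called lower. Their part in the values of Irf9 and Stat2 was not tested. Fgb, a fibrinogen chain of the liver list, averaged 4.87 over all arrays, near the floor. Plasmacytoid dendritic cell markers averaged 7.79 at 50 ppm and 7.88 in water, with 0 of 5 called, and the brightest of them, Ly6d, is also a urothelial gene. Macrophage markers averaged 10.59 and were called in 0 of 10, against 10.76 in water.

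At the lower doses for 1 week most means were above water, in groups that share the same 5 water mice. At 0.5 ppm, 7 of 8 were higher, by up to 0.48 ± 0.26 (SE) for Ifit1, with a median change of 0.20. The test called 0 of 8 at 0.5 ppm (limma, 0 with an unadjusted p under 0.05, against 12.5% of all genes), where 0.0479% of all genes were called. At 2 ppm, 7 of 8 were higher with a median of 0.20, and 0 of 8 were called (2 with an unadjusted p under 0.05, against 5.93% of all genes), where 0% of all genes were called. The 2 ppm group is the one with the lowest RNA integrity. Alternative fits took the RNA integrity number as a covariate or left out the arrays where it was lowest. The changes of Stat2 and Irf9, the 2 genes with an unadjusted p under 0.05 at 2 ppm, kept their sign in both. Over all genes the alternatives called between 0 and 2 at this dose. The part of RNA integrity was not tested further.

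Stat2 at 2 ppm had 8.06, 8.12, 8.13, 8.28 and 8.29, against the water values given above, with no overlap, as did 0.691% of all genes. Its change there was 0.28 ± 0.13 (SE, limma adjusted p = 0.839). The second Stat2 probe set gave 0.16 ± 0.12 at this dose (SE, limma adjusted p = 0.886).

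At 10 ppm for 1 week Usp18, Ifit2, Ifit3 and Rsad2 had their highest mean of the 1-week groups. Ifit3, an IFIT family member that stabilises IFIT1 on RNA in human cells, had 8.78, 8.92, 9.01, 9.22 and 8.94 at 10 ppm, against 8.52, 8.86, 8.45, 8.43 and 8.46 in water. A single water mouse, at 8.86, overlapped the 10 ppm group. The change of Ifit3 was 0.43 ± 0.16 (SE), 1.35-fold, with a limma adjusted p of 0.159. Ifit1 differed by 0.47 ± 0.25 (limma adjusted p = 0.328), Rsad2 by 0.36 ± 0.19 (0.341) and Usp18 by 0.26 ± 0.10 (0.195). Of the other Rsad2 probe sets, 1 gave 0.02 ± 0.19 and the other 0.27 ± 0.25. At this dose limma called 0 of 8 (2 with an unadjusted p under 0.05, against 17.1% of all genes), where 0.78% of all genes were called, and the median change was 0.24. Liver markers averaged 7.67 at 10 ppm (range 7.15 to 8.20) and 8.99 in water (range 7.51 to 9.94), with all 6 lower and 0 called. Their part in the values of Ifit3 and the other genes was not tested.

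Across the 1-week doses the order of the means differed between genes. Irf9 averaged 9.15 in water, 9.31 at 0.5 ppm, 9.39 at 2 ppm, 9.33 at 10 ppm and 9.53 at 50 ppm. Its slope over dose ranks was 0.08 ± 0.02 per step (SE, limma adjusted p = 0.139), and that of Stat2 was 0.09 ± 0.03 (0.233). Ifit1 averaged 6.75 in water, 7.23 at 0.5 ppm, 7.07 at 2 ppm, 7.22 at 10 ppm and 6.74 at 50 ppm, with a slope of 0.002 ± 0.06. Its mean at the highest dose was thus close to that in water. For the trend, 0 of 8 genes were called by limma (3 with an unadjusted p under 0.05, against 9.73% of all genes), where 0.267% of all genes were called. For any difference among the 1-week groups, 0 of 8 were called (2 with an unadjusted p under 0.05, against 19.3% of all genes), where 1.77% of all genes were called. Over the same 1-week doses 2 of 6 liver markers were called lower, and only 1 of 6 had a positive slope. The median slope of the 6 liver markers was -0.59 per step. Their part was not tested.

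**Figure D2:**
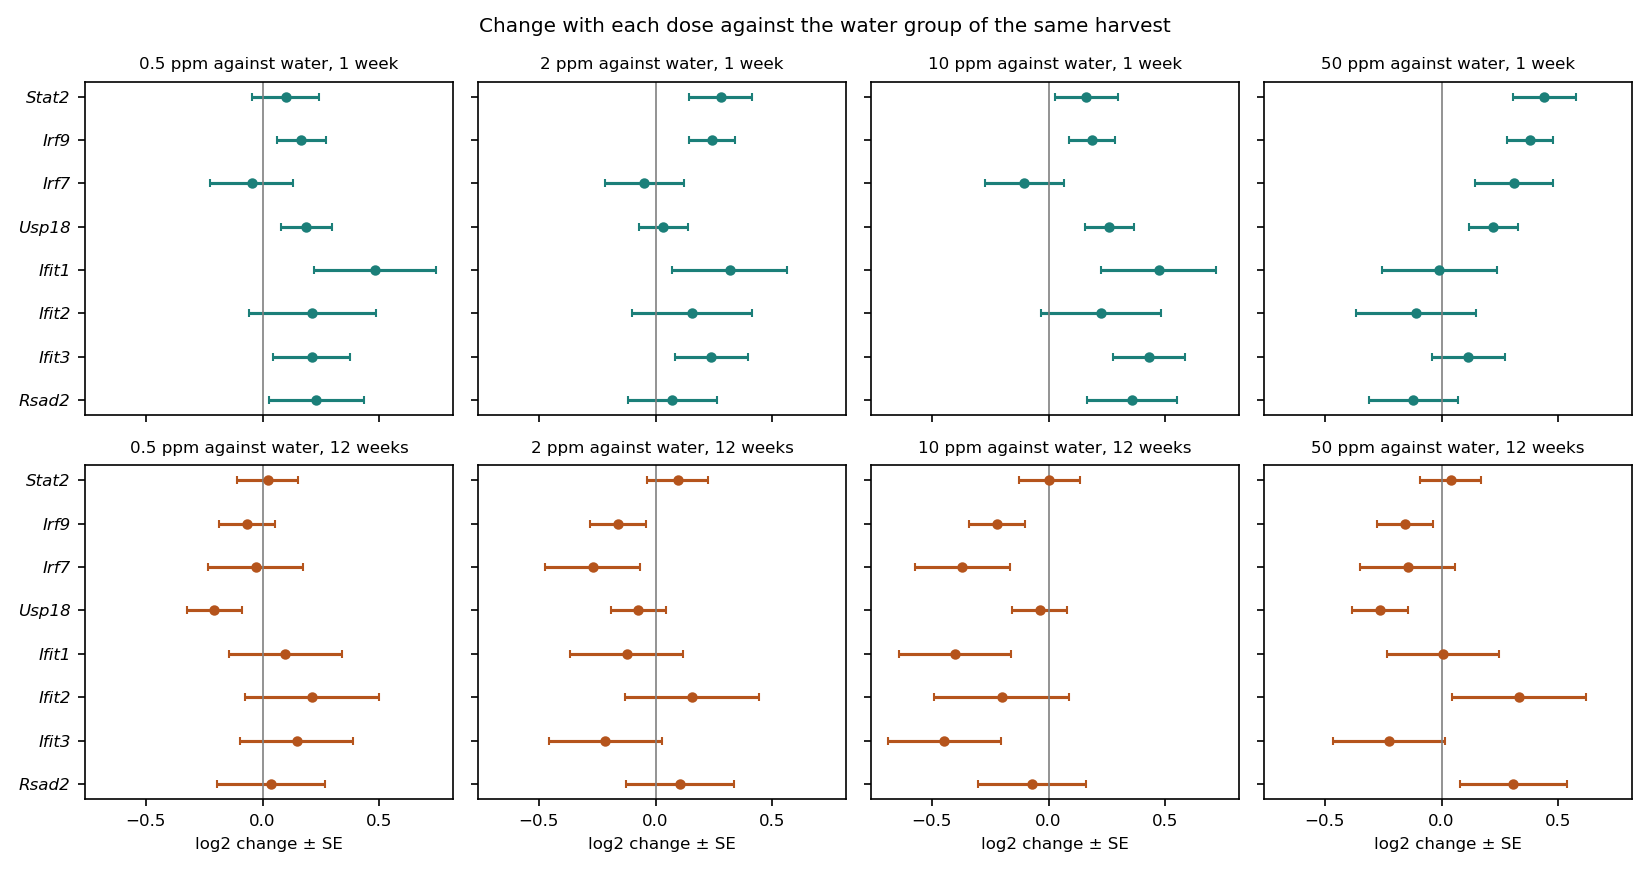
Log2 change ± SE of each gene at each dose against the water group of the same harvest, with 1 week above and 12 weeks below. Stat2 and Irf9 reached 0.44 and 0.38 at 50 ppm for 1 week, and at 10 ppm for 12 weeks 7 of 8 genes lay below 0.

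After 12 weeks at 50 ppm, 4 of the 8 genes had a higher mean than water and 4 a lower one. Irf9 averaged 9.10 ± 0.10 at 50 ppm, against 9.26 ± 0.17 in water (SD, n = 5 each), a change of -0.16 ± 0.12 (SE, limma adjusted p = 0.433). Stat2 averaged 8.39 ± 0.23 at 50 ppm and 8.35 ± 0.22 in water (SD), a change of 0.04 ± 0.13 (SE, 0.88). Both genes thus had overlapping groups at the dose where they did not overlap after 1 week.

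Usp18 had 10.28, 10.13, 10.18, 10.35 and 10.28 at 50 ppm for 12 weeks, against 10.44, 10.59, 10.74, 10.13 and 10.63 in water. A single water mouse, at 10.13, lay within the 50 ppm range, and the other 4 lay above it. The change of Usp18 was -0.26 ± 0.12 (SE, limma adjusted p = 0.168). Irf7 differed by -0.15 ± 0.20, Ifit3 by -0.23 ± 0.24, Ifit1 by 0.005 ± 0.24, Rsad2 by 0.31 ± 0.23 and Ifit2 by 0.33 ± 0.29 (SE). At 50 ppm limma called 0 of 8 (1 with an unadjusted p under 0.05, against 24.1% of all genes), where 4.06% of all genes were called. The median change of the 8 was -0.07, and that of all genes -0.04.

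At 10 ppm for 12 weeks, 7 of 8 genes had lower means than water and Stat2 was at 0.003. Ifit3 had 8.11, 8.52, 8.79, 7.55 and 8.28 at 10 ppm, against 9.36, 8.90, 8.62, 8.42 and 8.18 in water. The groups overlapped over much of their range. Its change was -0.45 ± 0.24 (SE, limma adjusted p = 0.361). Ifit1 differed by -0.40 ± 0.24 (0.409), Irf7 by -0.37 ± 0.20 (0.365) and Irf9 by -0.22 ± 0.12 (0.36). The median change was -0.21, and that of all genes -0.03. By limma 0 of 8 were called at 10 ppm (0 with an unadjusted p under 0.05, against 16% of all genes), where 0.335% of all genes were called. Macrophage markers averaged 10.23 at 10 ppm and 10.34 in water, with 0 of 10 called.

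At 0.5 ppm for 12 weeks the changes ran from -0.21 (Usp18) to 0.21 (Ifit2), and at 2 ppm from -0.27 (Irf7) to 0.16 (Ifit2). By limma 0 of 8 were called at either dose (0 with an unadjusted p under 0.05 at both, against 19% and 9.91% of all genes), where 0.527% of all genes were called at 0.5 ppm and 0.0137% at 2 ppm. The 12-week slopes over dose ranks ran from -0.10 ± 0.05 for Ifit3 to 0.05 ± 0.05 for Rsad2 (SE), with 0 of 8 called (0 with an unadjusted p under 0.05, against 22.5% of all genes), where 5.27% of all genes were called. For any difference among the 12-week groups, 0 of 8 were called (0 with an unadjusted p under 0.05, against 24.6% of all genes), where 4.95% of all genes were called.

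The water mice of both harvests were compared to see how the genes differ between them without arsenate. Harvest, age and time on the water all differ here and cannot be told apart. Stat2 and Usp18 were higher at 12 weeks, and the other 6 genes did not pass the test. Stat2 had 8.71, 8.32, 8.30, 8.11 and 8.32 in the 12-week water mice, against 7.88, 8.04, 7.96, 7.96 and 7.67 in the 1-week water mice. Every 12-week mouse lay above every 1-week mouse. The change of Stat2 was 0.45 ± 0.13 (SE), 1.37-fold, with a limma adjusted p of 0.0137. Its second probe set rose by 0.41 ± 0.14 (SE, limma adjusted p = 0.0452).

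Usp18 had 10.44, 10.59, 10.74, 10.13 and 10.63 at 12 weeks, against 10.04, 10.03, 10.19, 10.20 and 9.88 at 1 week. The lowest 12-week mouse lay within the 1-week range and the other 4 above it. The change of Usp18 was 0.44 ± 0.11 (SE), 1.35-fold, with a limma adjusted p of 0.00595. Irf9, the partner of STAT2 in ISGF3, differed by 0.11 ± 0.11 (0.537), Irf7 by 0.02 ± 0.19 (0.966) and Ifit3 by 0.15 ± 0.21 (0.696). Ifit1, Ifit2 and Rsad2 differed by between -0.05 and 0.07.

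The 2 of 8 genes called by limma stand against 13.4% of all genes, and the 1 of 8 with no overlap and higher levels against 4.79%. An unadjusted limma p under 0.05 was found for 2 of 8, against 27.7% of all genes. Without the first 12-week water mouse or without the fifth 1-week water mouse, Stat2 no longer passed and 1 of 8 was called. Several markers moved in the same contrast. Liver markers averaged 6.59 at 12 weeks (range 6.32 to 6.86) and 8.99 at 1 week (range 7.51 to 9.94), with 5 of 6 called lower. Macrophage markers averaged 10.34 at 12 weeks (range 10.29 to 10.47) and 10.76 at 1 week (range 10.66 to 11.02), with 5 of 10 called lower. Fibroblast markers averaged 12.41 (range 12.08 to 12.64) and 13.25 (range 13.19 to 13.29), with 3 of 4 called lower. Their part in the values of Stat2 and Usp18 was not tested.

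**Figure D3:**
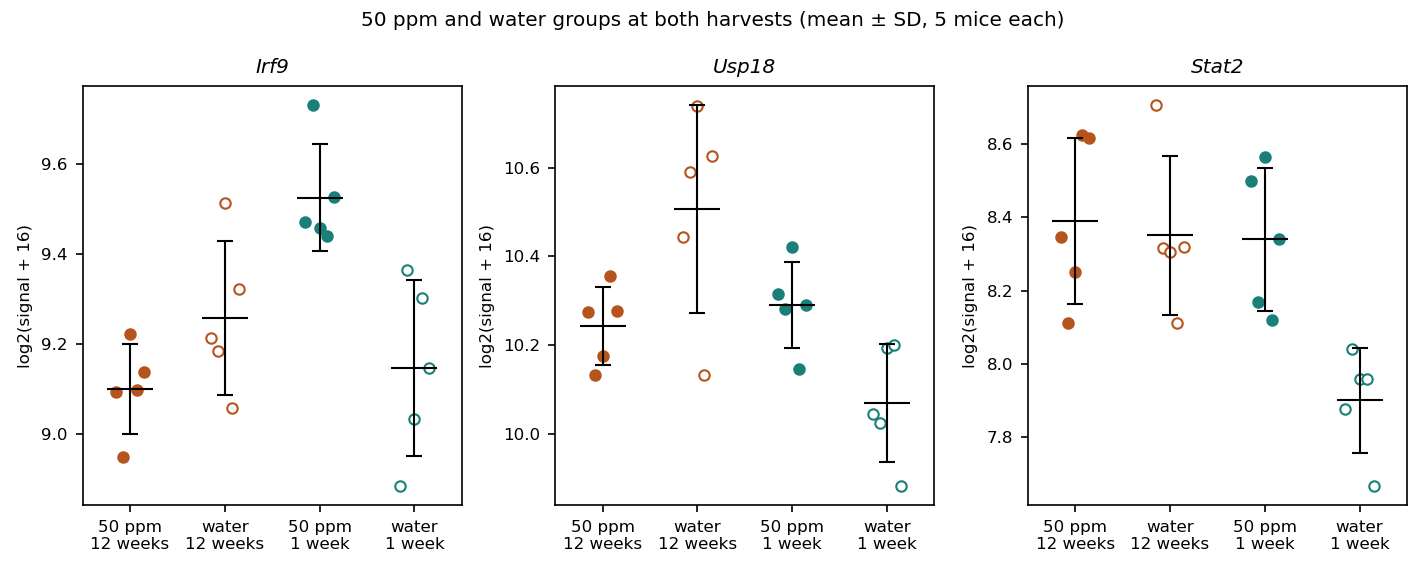
Levels of Irf9, Usp18 and Stat2, as log2(signal + 16), in each mouse of the 50 ppm groups (filled) and water groups (open) of both harvests, with the mean ± SD of 5 mice. Stat2 averaged 7.90 in the 1-week water mice and between 8.34 and 8.39 in the other 3 groups, and Irf9 was highest at 50 ppm for 1 week, at 9.53.

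Whether the effect of a dose differed between harvests was tested in 1 fit of all 49 arrays, as the 12-week effect minus the 1-week effect. At 50 ppm it differed for Irf9, by -0.54 ± 0.15 (SE, limma adjusted p = 0.0237). The effect on Irf9 was -0.16 at 12 weeks and 0.38 at 1 week. It also differed for Usp18, by -0.49 ± 0.16 (SE, limma adjusted p = 0.0468), with effects of -0.26 at 12 weeks and 0.22 at 1 week. Stat2 differed by -0.40 ± 0.18 (0.156) and Irf7 by -0.46 ± 0.27 (0.289). The effectors ranged from -0.34 for Ifit3 to 0.44 for Ifit2, none of them called.

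The 2 of 8 genes called stand against 7.36% of all genes. An unadjusted limma p under 0.05 was found for 3 of 8, against 25.1% of all genes. These differences use the same water mice as the comparison of harvests. The value for Usp18 contains its higher level in the 12-week water mice, and its 50 ppm means were close, at 10.24 after 12 weeks and 10.29 after 1 week. For Irf9 the 50 ppm means were 9.10 after 12 weeks and 9.53 after 1 week. Leaving out 1 mouse at a time gave between 0 and 2 called genes. Irf9 passed in 17 of these 20 fits and Usp18 in 6 of 20. Neither passed without the third 12-week water mouse, the first 1-week water mouse or the second 50 ppm mouse of 1 week.

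The level of the poly-A control probe sets was 9.95 at 50 ppm for 12 weeks and 10.81 in the 12-week water mice, against 10.77 at 50 ppm and 10.94 in water after 1 week. At the other 12-week doses it was 10.43 at 0.5 ppm, 10.33 at 2 ppm and 9.76 at 10 ppm. It was thus lower in every 12-week arsenate group than in water. A call lost with this covariate therefore cannot tell the control level from dose at that harvest. With the poly-A level as a covariate the difference for Irf9 was -0.42 (limma adjusted p = 0.206) and for Usp18 -0.39 (0.278), and 0 of 8 were called. Liver markers also moved in this contrast, with 3 of 6 called higher and a median difference of 2.27. Their part was not tested.

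At 10 ppm all 8 differences between harvests were negative, with a median of -0.42, and that of all genes was -0.04. Ifit3 differed by -0.88 ± 0.30 (SE, limma adjusted p = 0.13), with effects of -0.45 at 12 weeks and 0.43 at 1 week. Ifit1 differed by -0.87 ± 0.35 (0.214) and Irf9 by -0.41 ± 0.15 (0.173). By limma 0 of 8 were called (3 with an unadjusted p under 0.05, against 13.9% of all genes), where 1.38% of all genes were called. At 0.5 ppm 0 of 8 were called (1 with an unadjusted p under 0.05, against 19.6% of all genes), where 4.61% of all genes were called. At 2 ppm 0 of 8 were called (1 with an unadjusted p under 0.05, against 5.94% of all genes), where 0% of all genes were called. The median differences were -0.14 at 0.5 ppm and -0.20 at 2 ppm. At 10 ppm all 6 liver markers had a positive difference, with a median of 1.41 and 0 called, and their part was not tested.

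The genes upstream and beside these were described from lists of the pathway. Of 19 interferon genes listed, 10 had a single-gene probe set and 4 passed the filter. Ifng, the type II interferon, averaged 4.64 and Ifna2 4.51, near the floor of 4, and neither was tested. Ifnb1, the first type I interferon made in many infected cells, averaged 6.47 in the 12-week water mice and 5.57 in the 1-week water mice. That is a change of 0.90 ± 0.31 (SE, limma adjusted p = 0.0464), and the call was kept in 2 of 10 fits without 1 mouse. Over the 12-week doses Ifnb1 fell by 0.27 ± 0.06 per step (SE, limma adjusted p = 0.015), where 5.27% of all genes were called. This call was kept in 25 of 25 fits without 1 mouse. With the poly-A covariate the slope was -0.20 (limma adjusted p = 0.557), and 0 of all genes were called in that trend. The poly-A level was lower at every 12-week dose than in water, so that level and dose cannot be told apart there. At such a dim level the size of a change depends on the offset of 16.

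Among 15 tested genes of receptors and signalling, 2 were called at 50 ppm for 12 weeks, both chains of the interferon gamma receptor, where 4.06% of all genes were called. Ifngr1 averaged 9.65 at 50 ppm and 9.26 in water, a change of 0.39 ± 0.11 (SE, limma adjusted p = 0.0426). Ifngr2 averaged 9.89 at 50 ppm and 9.43 in water, a change of 0.46 ± 0.13 (SE, limma adjusted p = 0.0453). Without 1 mouse at a time, Ifngr1 was called in 1 of 10 fits and Ifngr2 in 2 of 10. With the poly-A covariate neither passed, at 0.16 for Ifngr1 (limma adjusted p = 0.778) and 0.56 for Ifngr2 (0.308). In the 12-week dose trend Ifngr2 (0.13 per step, limma adjusted p = 0.013), Ifngr1 (0.09, 0.0404) and the phosphatase gene Ptpn6 (-0.18, 0.0433) were called, and 0 of them with the poly-A covariate. Without 1 mouse at a time, Ifngr2 was called in 25 of 25 fits of the trend, Ifngr1 in 12 and Ptpn6 in 10. Without the covariate, 5.27% of all genes were called in that trend.

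Stat3, a signal transducer of the interleukin 6 family, was lower at 10 ppm for 1 week by 0.48 ± 0.11 (limma adjusted p = 0.0379), the only gene of the 15 called there, where 0.78% of all genes were called. It passed in 3 of 10 fits without 1 mouse, and not with the poly-A covariate (0.0514). Between the water groups 5 of 15 were called, where 13.4% of all genes were. Ifnar1, a chain of the type I receptor, averaged 8.87 at 12 weeks and 9.25 at 1 week, a change of -0.38 ± 0.09 (limma adjusted p = 0.00461). Ifngr1 changed by -0.57, Stat3 by -0.50, Ptpn11 by -0.26 and Ptpn6 by 0.75 in the same contrast. Of the differences between harvests, those called were Ptpn11 at 0.5 ppm (0.45), Stat3 at 10 ppm (0.76), and Ifngr1 (0.63) and Ptpn6 (-1.22) at 50 ppm. Of all genes, 4.61% were called in that difference at 0.5 ppm, 1.38% at 10 ppm and 7.36% at 50 ppm. Ifngr1 and Ptpn6 did not pass at 50 ppm with the poly-A covariate (limma adjusted p = 0.241 and 0.0966), while Stat3 (0.0114) and Ptpn11 (0.0371) passed at their doses. Without 1 mouse at a time, Stat3 and Ptpn6 passed in 20 of 20 fits of these differences, Ifngr1 in 19 of 20 and Ptpn11 in 14 of 19.

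Of 63 further interferon-stimulated genes listed, 52 were tested, and limma called 0 in any of the 8 dose contrasts, where 0% to 4.06% of all genes were called. At 50 ppm for 1 week the smallest p-values were those of Lgals3bp (0.29 ± 0.08, adjusted p = 0.123) and Xaf1 (0.29 ± 0.11, 0.265). At 10 ppm for 1 week they were those of Oas3, a sensor of double-stranded RNA, at 1.37 ± 0.34 (0.0517), and Rtp4, at 0.26 ± 0.09 (0.132). Oas3 averaged 4.64 in the 1-week water mice, near the floor, and 5.30 over all arrays. The size of each Oas3 change therefore depends on the offset. Rtp4 also had a small p at 2 ppm (0.26, 0.688) with Eif2ak2 (0.47, 0.872), and at 0.5 ppm (0.22, 0.353) with Oasl1 (0.45, 0.333). In the 1-week dose trend Oas3 (0.29 per step, 0.137) and Xaf1 (0.07, 0.245) came first.

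At 12 weeks the genes of smallest p went both ways. At 50 ppm Adar, an RNA-editing deaminase, differed by -0.33 ± 0.10 (limma adjusted p = 0.0529) and Gbp7, a guanylate-binding protein, by 0.67 ± 0.24 (0.0884). At 10 ppm Oas1a differed by -0.48 ± 0.15 (0.116) and Parp14 by 0.49 ± 0.17 (0.166). At 2 ppm Ifi35 differed by -0.28 (0.451) and Trim25 by -0.23 (0.46), and at 0.5 ppm Parp14 by 0.68 (0.0552) and Sp100 by 0.61 (0.142). In the 12-week trend Uba7, the enzyme that activates ISG15 for transfer, was called at -0.10 per step (0.0458), and not with the poly-A covariate (0.769). Without the covariate, 5.27% of all genes were called in that trend. The median change of the 52 was 0.08 at 50 ppm for 1 week, -0.03 at 50 ppm for 12 weeks and -0.08 at 10 ppm for 12 weeks.

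Between the water groups 5 of these 52 were higher at 12 weeks and 2 were lower, a share near the 13.4% of all genes called. Those higher at 12 weeks were Oas3 (1.06 ± 0.37, limma adjusted p = 0.0467), Slfn5 (1.06 ± 0.36, 0.0427), Eif2ak2, the kinase PKR (0.73 ± 0.24, 0.037), Oas1c (0.40 ± 0.14, 0.0449) and Adar (0.31 ± 0.09, 0.0173). Oas3 averaged 5.69 at 12 weeks and 4.64 at 1 week, the latter near the floor, so the size of its change depends on the offset. Slfn5 and Eif2ak2 were also dim in the 1-week water mice, at 5.62 and 6.17, and the same holds for their changes. Ifitm1, a membrane protein that restricts virus entry, changed by -0.48 ± 0.10 (0.000858) and Parp14 by -0.50 ± 0.16 (0.0263). Without 1 mouse at a time Ifitm1 passed in 10 of 10 fits, Parp14 in 5, Eif2ak2 in 4, Oas3 and Slfn5 in 3 each and Oas1c in 2. With the poly-A covariate Slfn5 did not pass (0.0525).

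In the difference between harvests at 50 ppm 4 of 52 were called, a share near the 7.36% of all genes. They were Lgals3bp at -0.57, Uba7 at -0.57, Adar at -0.52 and Isg20 at -0.49. With the poly-A covariate 92 of all genes were called in place of 1076, and these 4 were not (limma adjusted p from 0.127 to 0.3). At 0.5 ppm Parp14 was the only one called, at 0.78 (0.0372), and not with that covariate (0.0626). Without the covariate, 4.61% of all genes were called at 0.5 ppm. At 10 ppm the smallest p-values were those of Oas3 (-1.75, 0.0776) and Parp14 (0.72, 0.0935), and at 2 ppm those of Uba7 (-0.37, 0.8) and Oasl1 (-0.53, 0.84). The Oas3 value uses the 1-week water mice, where its mean of 4.64 was near the floor.

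Of 21 interferon gamma targets and 19 genes of nucleic acid sensing tested, limma called 0 in any dose contrast, where 0% to 4.06% of all genes were called. Between the water groups 3 of the 21 targets were called, against 13.4% of all genes. They were Nlrc5, an activator of MHC class I genes (0.50 ± 0.12, limma adjusted p = 0.00298), the complement inhibitor Serping1 (-0.30 ± 0.09, 0.0268) and the GTPase Iigp1 (-0.61 ± 0.21, 0.0449), which did not pass with the poly-A covariate (0.0549). In the difference between harvests at 50 ppm 1 of the 19 sensing genes was called, where 7.36% of all genes were. It was Tlr9, a receptor for DNA (-1.68 ± 0.54, 0.0458), which passed in 8 of 20 fits without 1 mouse. It did not pass with the poly-A covariate (0.229). Tlr9 was dim, at 6.45 over all arrays, so the size of its change depends on the offset.

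The last question was how far the 8 genes vary together from mouse to mouse. Group means were subtracted and each of the 28 pairs was correlated over all 49 mice, with a two-sided permutation test of 1e+05 permutations within groups. All genes of a mouse share 1 array, so its RNA and its scaling enter every pair. Pearson's r ran from -0.417 to 0.599 with a median of 0.172, and 3 pairs had an adjusted p under 0.05 over the 28. All 3 hold Ifit3. With Rsad2 its r was 0.599 (permutation p = 5e-05, adjusted 0.0007; Spearman's rho 0.551, permutation p = 0.00015, adjusted 0.0021). With Ifit1 its r was 0.553 (permutation p = 5e-05, adjusted 0.0007; rho 0.562, permutation p = 9e-05, adjusted 0.0021). With Ifit2 its r was 0.479 (permutation p = 0.00409, adjusted 0.0382), while rho was 0.414 and did not pass (permutation p = 0.0101, adjusted 0.0939).

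The 2 mice farthest from the median of 1 gene of each pair were then left out. Without those of Ifit3, its r with Rsad2 was 0.517. Without those of Ifit1, the r of Ifit3 and Ifit1 was 0.568. Without those of Ifit2, the r of Ifit3 and Ifit2 was 0.440. Within harvests, Ifit3 and Ifit1 had r of 0.645 at 1 week and 0.536 at 12 weeks, and Ifit3 and Ifit2 0.484 and 0.488. Ifit3 and Rsad2 had 0.268 at 1 week and 0.765 at 12 weeks, a difference that was not tested. The 6 pairs among the effectors had a median r of 0.420, and the other 22 pairs one of 0.096. Stat2 and Irf9, which act in 1 complex, had an r of 0.132 (permutation p = 0.374, adjusted 0.581). Usp18 and Ifit2 had the lowest r, -0.417 (permutation p = 0.0182, adjusted 0.126).

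**Figure D4:**
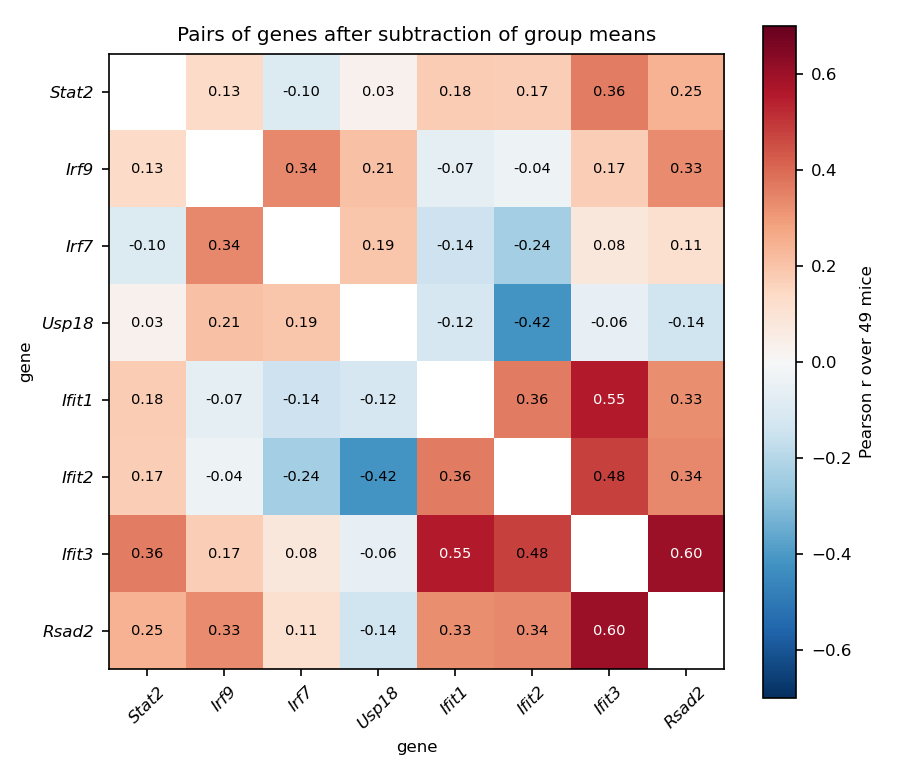
Pearson's r over 49 mice for each pair of the 8 genes after subtraction of group means, with red for positive and blue for negative values. The highest value is that of Ifit3 with Rsad2, 0.60, and the lowest that of Usp18 with Ifit2, -0.42.

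Each gene was also set against the mean of the other 7 over the same 49 mice. Ifit3 had the highest r, 0.677, followed by Rsad2 at 0.541, Ifit1 at 0.306, Irf9 at 0.302 and Stat2 at 0.287. Ifit2 had 0.179, Irf7 0.064 and Usp18 -0.078. The genes outside the list with the highest r to the mean of the 8 were Ifi47 (0.685) and Gbp6 (0.668), both interferon-inducible GTPases. Next were Irgm2 (0.592), Pum3 (0.580), Ppil4 (0.579), Irgm1 (0.579), Abraxas2 (0.574), Gzma (0.572), Cmpk2 (0.566) and Zfp35 (0.553). Cmpk2, a mitochondrial nucleotide kinase, neighbours Rsad2 in the genome.

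Across all genes tested the median r to this mean was -0.017 and the 99th percentile 0.438. The 52 further interferon-stimulated genes had a median of 0.165 (range -0.317 to 0.566) and the 21 interferon gamma targets 0.246 (range -0.354 to 0.668). These are descriptions of shared variation on the same arrays, with no test.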

How the data were processed

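Gene expression was measured in whole mouse bladders on 49 1-colour arrays, 24 after 1 week and 25 after 12 weeks. The deposited table holds 1 linear intensity per probe set and array. GCOS 1.0 is named per the submitters' processing notes, without settings in the sources used here. The deposited intensity values had a common trimmed mean on every array, so no further normalization was applied. The number of arrays limits the precision.

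Of 45101 probe sets, 64 were controls, 34945 had a single gene, 932 several and 9160 none. Genes were tested through the single-gene probe set of highest mean, provided its signal exceeded the array's 40th percentile on 4 or more arrays. Values were log2(signal + 16). limma 3.58.1 (lmFit, eBayes with a trend) in R 4.3.3 fitted each harvest alone with a mean per group. The water contrast and the differences between harvests used all arrays. Calls are adjusted p-values under 0.05 (Benjamini-Hochberg over 14618 genes), and adjusted p-values in parentheses are limma's. Steps were tested on simulated data. Correlations were computed with numpy 2.4.6 and scipy 1.17.1 under Python 3.11.15.

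The genes and lists were chosen with earlier results of these data known. All 9 listed genes are named. Of each pathway list, called genes are named, up to 4 each way, or the 2 of smallest p among further interferon-stimulated genes where none was called. The 10 genes most like the listed ones are named by r. Alternatives were other offsets, quantile normalization, other filters, array weights, covariates and a replicate block. Further ones were removal of each array and removal of the arrays of lowest RNA integrity number.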

Additional observations from a re-analysis of the deposited data

Results flagged for a closer look

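Over 80 gene and group combinations, 2 held a mouse far from the others, and chance gives about 1 in 20. Irf9 at 2 ppm for 12 weeks was 8.78 in replicate 1, and the other 4 mice lay between 9.11 and 9.22. Ifit3 in the 1-week water group was 8.86 in replicate 2, and the other 4 lay between 8.43 and 8.52. The effect of 50 ppm differed between harvests for Irf9, by -0.54, and for Usp18, by -0.49, in the limma test of the difference itself.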

How the results depend on the processing

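The water comparison kept 2 called genes in every alternative fit, and between 1 and 2 when 1 array was left out. There Usp18 passed in 21 of 21 settings (change 0.36 to 0.53) and Stat2 in 19 of 21 (0.36 to 0.51). For the difference between harvests at 50 ppm, 1 gene was called under quantile normalization, with no filter, and with the RNA integrity number or the hybridization control level as a covariate, in each case Irf9. Adjustment for the poly-A controls left 0 called, and leaving out 1 array gave 0 to 2. Irf9 passed in 27 of 31 settings and Usp18 in 12 of 31. Array weights called 1 gene each at 10 ppm for 1 week (Ifit3), at 50 ppm for 1 week (Stat2) and in the difference at 10 ppm (Irf9). The cause of these differences was not tested. Over all genes, array weights called 1264 at 10 ppm and 248 at 50 ppm for 1 week, against 114 and 49 as reported. Of 21 changes with an unadjusted p under 0.05, 0 changed sign in any setting. Of 99 others, 30 did under at least 1 of 12 alternatives, the largest of them 0.37 in size. Replicate numbers were not treated as pairs: same-numbered mice correlated at a median of 0.003 (range -0.267 to 0.39). Of 96 such pairs, 10 correlated above 0.1. Mice of different numbers were not compared, so these values do not decide whether the numbers pair mice. With a replicate block 0 of 8 genes were called in each dose contrast and 2 in the water comparison, and over all genes 74 instead of 114 were called at 10 ppm for 1 week. Quantile normalization moved the split there to 54 higher and 144 lower, from 19 and 95. The number of correlated pairs was 3 as reported, 2 under quantile normalization and 3 with offsets of 1 or 64. Over all genes, the counts at 50 ppm for 12 weeks ran from 1 with the poly-A covariate to 1617 without the first 12-week water mouse. The poly-A level was lower at every 12-week dose than in water, so the first count cannot tell that level from dose.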
